A study of Mus musculus with 17 samples.

Results

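The genes described here carry glucose into the cell, break it down to pyruvate, and send the pyruvate either out as lactate or into the mitochondrion as acetyl-CoA. The set was given as 35 gene symbols covering glucose transporters, glycolytic enzymes, lactate dehydrogenases and lactate carriers, the pyruvate dehydrogenase complex with its kinases, and the transcription factor Hif1a. All 35 symbols matched a single gene each among the 41388 genes counted, and all 35 passed the filter on low counts in every comparison. Together they took between 0.707% and 1.39% of the counts of a library.

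RNA was sequenced from bone marrow macrophages (BMMs) grown in M-CSF, the growth factor that keeps macrophages alive, and from preosteoclasts (preOCs), which are BMMs given RANKL, the cytokine that starts osteoclast formation, at 100 ng/mL for 24 h. The cells came from mice of 2 genotypes, and the preOCs came from 20-week-old males. An age for the BMM donors is not given in the sources used here. Bap1flox mice carry loxP sites in both copies of Bap1, a histone deubiquitinase, and no Cre. Bap1LysM mice carry the same alleles with 1 copy of Cre recombinase in the lysozyme M locus, Lyz2, the other copy being without Cre. That locus is active across the myeloid lineage and not only in osteoclasts. There were 3 BMM libraries of each genotype, 6 Bap1flox preOC libraries and 5 Bap1LysM preOC libraries, with 37967542 to 61369441 counts each. The libraries numbered 1 to 3 hold both cultures, while those numbered 4 to 6 hold preOCs alone, so the RANKL response was taken from numbers 1 to 3. Bap1LysM preOC number 3 was not analysed here.

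The labels were checked first. Over the whole gene, Bap1 stood at 15.1 to 18.8 scaled RPKM in Bap1flox preOCs and at 12.5 to 17.5 in Bap1LysM preOCs, and it did not pass the test between genotypes (log2 fold change -0.22, SE 0.10, adjusted p = 0.182). A count over the whole gene does not read out the loss of the exons between loxP sites. Lyz2, which the Cre insertion disrupts, stood at 10 to 32.7 scaled RPKM in 6 of the 8 Bap1LysM libraries, but at 7570 in Bap1LysM BMM 1 and at 5440 in Bap1LysM preOC 1, against 5150 to 18000 in Bap1flox. The Bap1LysM libraries thus form 2 groups. With 1 Cre copy an intact Lyz2 copy remains, so the near absence of Lyz2 in the 6 libraries goes against the stated genotype, while BMM 1 lay below the 15700 to 18000 of Bap1flox BMMs and preOC 1 within the 5150 to 10300 of Bap1flox preOCs. Which libraries match their label was not tested. The 2 numbered 1 stand apart from the rest, and for each Bap1LysM comparison the calls are also given without them. All 11 osteoclast markers tested rose with RANKL in Bap1flox and all 8 macrophage markers fell, while erythroid and muscle markers were at or near 0, with sums of at most 0.623 and 2.29 CPM. Collagen and other stromal markers were present in every library, with sums of 1170 to 1970 CPM in Bap1flox preOCs 1 to 3, 192 to 336 in Bap1flox preOCs 4 to 6 and 103 to 2800 over all libraries. The mitochondrially encoded share of counts was 0.481% to 1.074% in the libraries numbered 1 to 3 and 2.364% to 5.264% in those numbered 4 to 6. Both differ between the library sets. The mitochondrial share also differed by genotype in preOCs, and was higher in Bap1LysM at every shared number. It was 1.021%, 1.074%, 3.383%, 3.714% and 5.264% in Bap1LysM preOCs 1, 2, 4, 5 and 6. Bap1flox preOCs of the same numbers had 0.667%, 0.481%, 2.844%, 2.364% and 3.639%. The part of stromal RNA and of the mitochondrial share in the results below was not tested.

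As background, a hexokinase traps glucose as glucose 6-phosphate, phosphofructokinase (PFK) commits it to glycolysis, and the bifunctional PFKFB enzymes set the level of fructose 2,6-bisphosphate, the main activator of PFK. Lactate dehydrogenase turns pyruvate into lactate, which leaves through monocarboxylate carriers, whereas the pyruvate dehydrogenase complex turns it into acetyl-CoA unless a pyruvate dehydrogenase kinase (PDK) switches the complex off. Osteoclasts are rich in mitochondria and also export acid and lactate during resorption. Most of these steps are served by several isozymes with different kinetics. Levels below are scaled RPKM, which is the usual RPKM computed on a library size corrected by a TMM factor. They are levels of mRNA, not of enzyme or of flux, and in bulk RNA fewer cells of a type cannot be told apart from less RNA per cell.

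RANKL raised most of the pathway in Bap1flox cells. Of the 35 genes, 21 rose and 8 fell, whereas 6 did not pass the test (edgeR quasi-likelihood test, 3 against 3 libraries, Benjamini-Hochberg adjusted p under 0.05). Over all 13415 genes tested, 31.7% rose and 32.9% fell, so change itself was common and the members differed in its direction. The median log2 fold change of the members was 0.54, beside -0.05 over all genes. The ranges of both cultures did not overlap for 30 of the 35 members, beside 71.3% of all genes tested. With library totals in place of TMM factors the median over all genes moved from -0.05 to 0.15, 5481 genes rose and 3333 fell in place of 4252 and 4410, and 24 members rose and 6 fell.

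**Figure D1:**
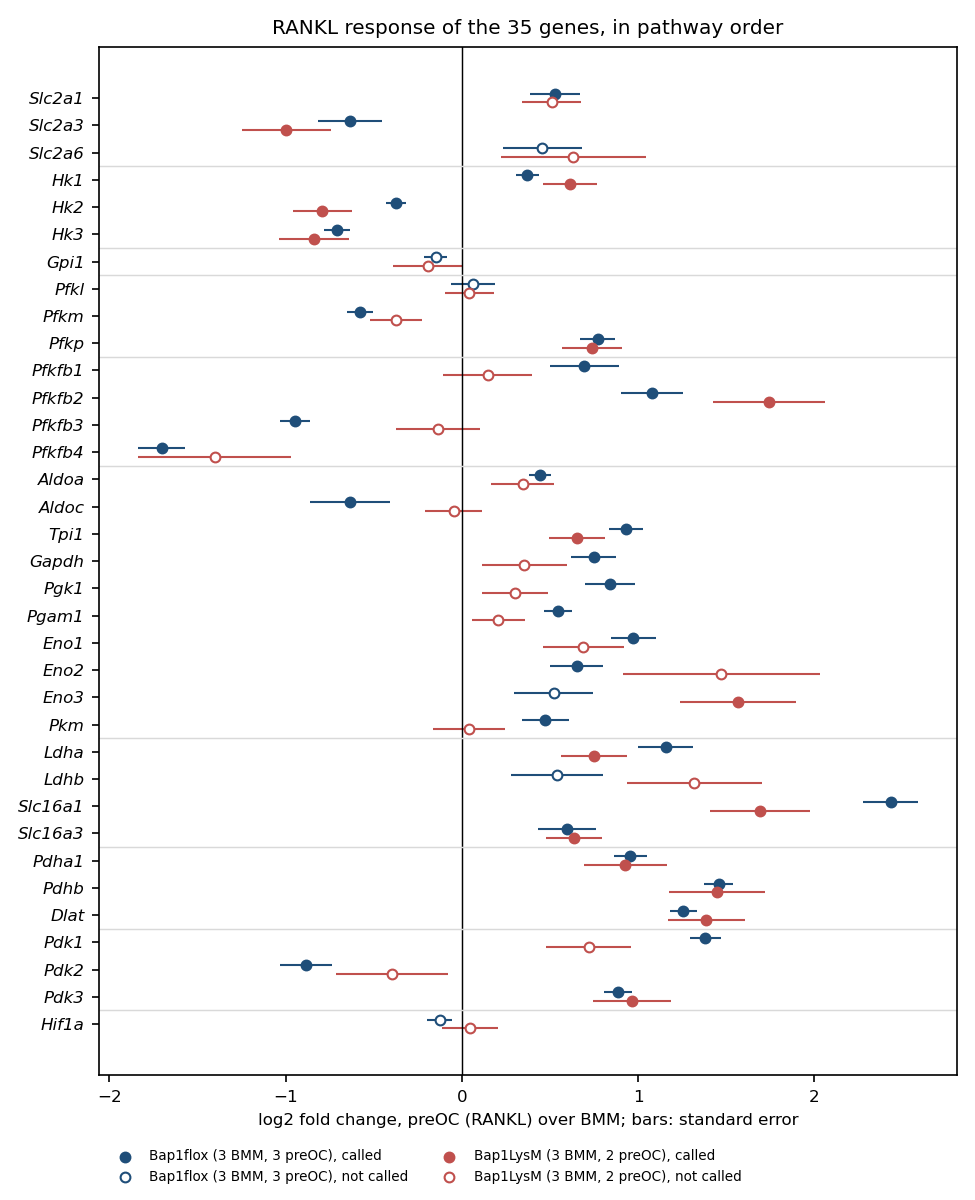
RANKL response of the 35 genes in pathway order, as log2 fold change of preOCs over BMMs with its standard error, in Bap1flox (blue, 3 BMM and 3 preOC libraries) and Bap1LysM (red, 3 BMM and 2 preOC libraries). Filled points passed the test and open points did not. Slc16a1 has the highest value in Bap1flox at 2.43 and Pfkfb4 the lowest at -1.70.

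At the point of entry the transporters moved apart. Slc2a1 encodes GLUT1, the widespread basal glucose transporter. It stood at 17, 16.3 and 15.4 scaled RPKM in Bap1flox BMMs and at 29.3, 20.7 and 20.9 in preOCs 1 to 3. Every preOC was above every BMM, with preOC 1 well above the other two. Slc2a1 rose by a log2 fold change of 0.53 (SE 0.14, adjusted p = 0.0142). Slc2a3 encodes GLUT3, a transporter of high affinity, and was sparse. It was at 1.33, 1.35 and 1.2 in BMMs and at 1.05, 0.807 and 0.661 in preOCs, a fall of 0.63 on the log2 scale (adjusted p = 0.0181) that did not pass with library totals (adjusted p = 0.0587), nor without BMM 2 or without preOC 2. Slc2a6, a lysosomal hexose transporter of macrophages, was at 8.18 to 11.8 in BMMs and at 18, 10.5 and 11.9 in preOCs. Those ranges overlap, and Slc2a6 did not pass (log2 fold change 0.46, adjusted p = 0.113), although it did when libraries were blocked by their number (0.43, adjusted p = 0.019) and with library totals (adjusted p = 0.0328).

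The hexokinases moved in opposite directions. Hk1, the housekeeping hexokinase that binds mitochondria, rose from 18.8, 18 and 17.8 in BMMs to 25.3, 23.4 and 22.4 in preOCs (log2 fold change 0.37, SE 0.07, adjusted p = 0.00199). Hk2, the inducible hexokinase of highly glycolytic cells, was at 9.96, 10.2 and 9.84 in BMMs and at 7.76, 7.56 and 8.01 in preOCs. It fell by 0.37 on the log2 scale (SE 0.06, adjusted p = 0.00106), but did not pass in the single fit of all 17 libraries, where the value was -0.21. Hk3, a hexokinase largely of myeloid cells, was the most abundant of the family in every library. Its level was 85.1, 99.5 and 92.2 in BMMs and 56, 58.8 and 56.3 in preOCs, and it fell by 0.71 on the log2 scale (SE 0.07, adjusted p = 0.000191). None of the 3 hexokinase ranges overlap between cultures. Counted per kb within the family, Hk3 went from 76.5 ± 1.61% (SD, n = 3) to 64.4 ± 1.39%, and Hk1 from 15.1 ± 1.22% to 26.8 ± 1.43%, while Hk2 kept 8.31 ± 0.394% and 8.8 ± 0.416%. In preOCs 4 to 6, which the test did not use, Hk1 held 31.5% to 38.9% of the family and Hk3 52.9% to 61.2%.

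**Figure D2:**
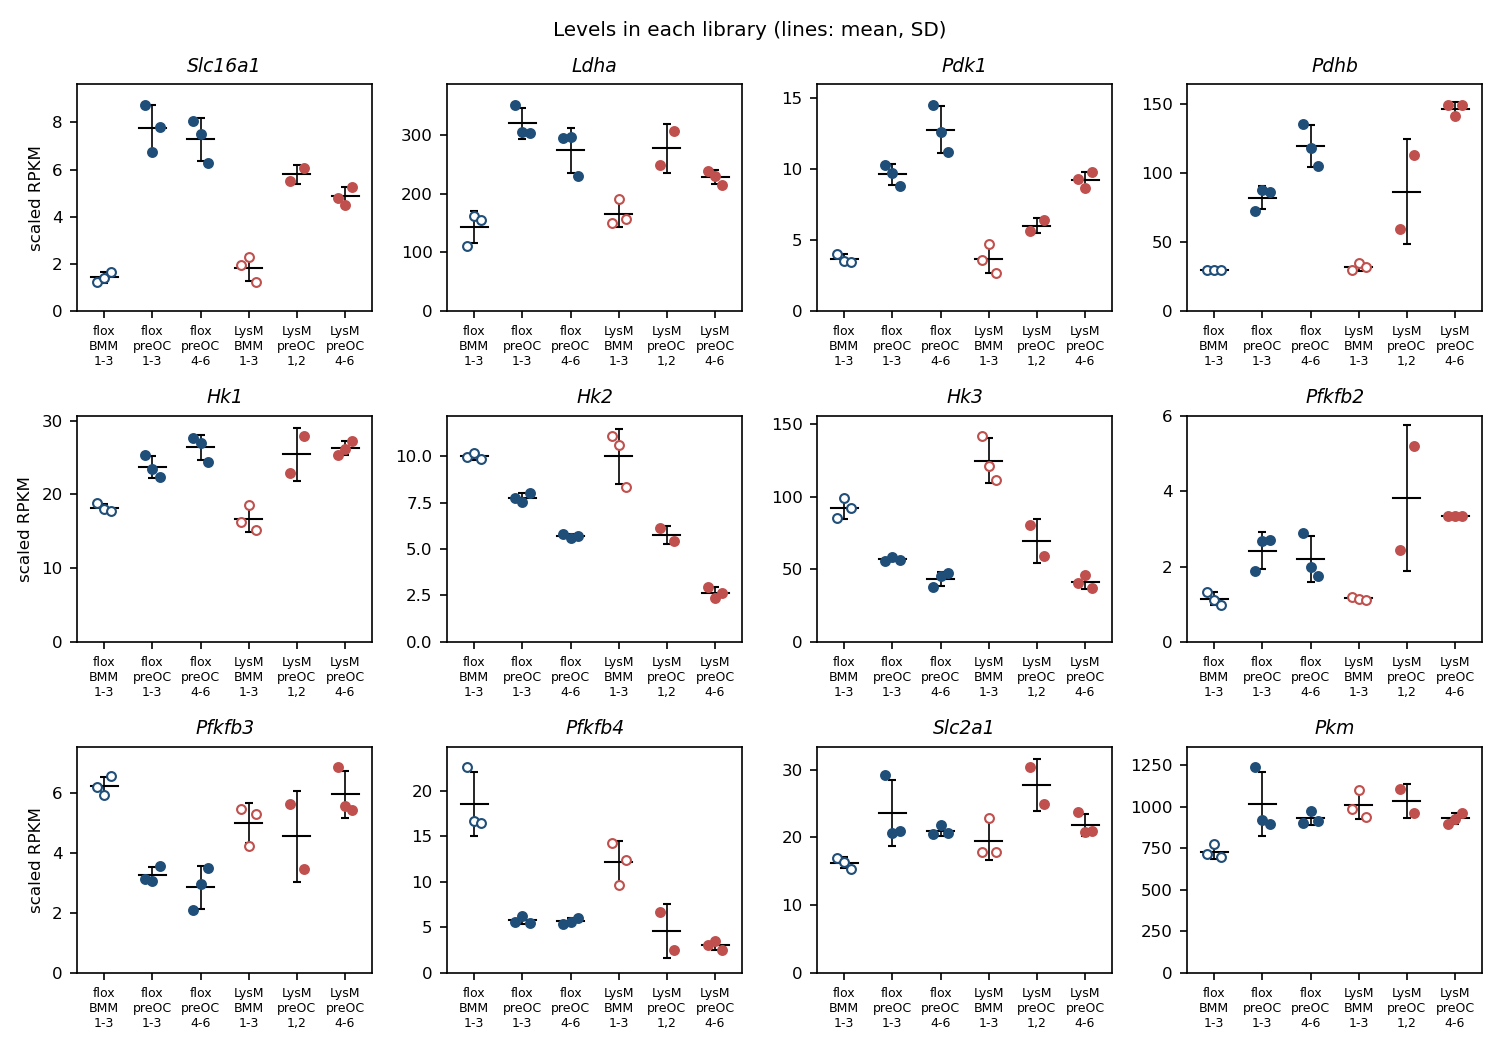
Levels of 12 genes in each library, in scaled RPKM, for Bap1flox (blue) and Bap1LysM (red), with BMMs as open and preOCs as filled points and black lines for the mean and the SD over libraries. Each axis starts at 0. Slc16a1, Ldha, Pdk1 and Pdhb are higher in all Bap1flox preOCs than in BMMs, and Hk2, Hk3, Pfkfb3 and Pfkfb4 are lower.

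Gpi1, which converts glucose 6-phosphate to fructose 6-phosphate, did not pass although its ranges do not overlap. It was at 122, 126 and 123 in BMMs and at 121, 108 and 108 in preOCs (log2 fold change -0.15, 95% interval -0.28 to -0.02, adjusted p = 0.0893). The PFK subunits come next in the chain. Pfkl, the liver-type subunit and the most abundant, overlapped between cultures (19.3 to 26.4 in BMMs and 23.9 to 26.5 in preOCs, log2 fold change 0.06, SE 0.13). Pfkp, the platelet-type subunit, rose from 6.26, 6.12 and 5.32 to 11.3, 9.37 and 9.65 (log2 fold change 0.77, SE 0.10, adjusted p = 0.000461). Pfkm, the muscle-type subunit, was at 12, 11.4 and 10.7 in BMMs and at 7.24, 7.77 and 7.99 in preOCs, and fell by 0.58 on the log2 scale (SE 0.07, adjusted p = 0.000457). Pfkm and Pfkp thus traded places. The share of Pfkm went from 28 ± 3.49% to 18.1 ± 1.75% and that of Pfkp from 14.5 ± 2.05% to 23.7 ± 1.25% (SD, n = 3).

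Among the 4 PFKFB genes, those most often linked to high glycolysis fell. Pfkfb4 was the PFKFB gene of highest level in BMMs at 22.6, 16.7 and 16.4, and stood at 5.54, 6.21 and 5.47 in preOCs. It had the strongest fall of all members, 1.70 on the log2 scale or 3.25-fold (SE 0.13, adjusted p = 5.4e-05). Pfkfb3, the isoform of highest kinase activity, was at 6.18, 5.93 and 6.55 in BMMs and 3.12, 3.06 and 3.57 in preOCs, a fall of 0.95 on the log2 scale (SE 0.09, adjusted p = 9.8e-05). Pfkfb2, the isoform first described in heart, rose from 1.33, 1.11 and 0.987 to 1.87, 2.69 and 2.72 (log2 fold change 1.08, SE 0.18, adjusted p = 0.0015). Pfkfb1, known from liver, was low, at 0.374, 0.443 and 0.411 in BMMs and at 0.736, 0.707 and 0.558 in preOCs. It passed the test (log2 fold change 0.69, adjusted p = 0.0167), though not without preOC 2 (adjusted p = 0.0587). Within the family Pfkfb4 went from 70.2 ± 3.53% to 47.5 ± 2.72% and Pfkfb2 from 4.33 ± 0.274% to 20 ± 2.94% (SD, n = 3), and these ranges do not overlap.

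Every abundant enzyme from aldolase to pyruvate kinase rose. Tpi1, triose phosphate isomerase, went from 90.1, 106 and 102 to 210, 179 and 184 (log2 fold change 0.93, SE 0.10, adjusted p = 0.000168). Eno1, the ubiquitous enolase, went from 95.5, 129 and 121 to 248, 218 and 217 (log2 fold change 0.97, SE 0.13, adjusted p = 0.000523). All preOC values of both genes lie above all BMM values. Pgk1, which makes the first ATP of glycolysis, rose by 0.84, Gapdh by 0.75, Pgam1 by 0.55, Pkm by 0.47 and Aldoa by 0.45 on the log2 scale, with adjusted p between 0.000725 and 0.0174. Pgk1 stood at 87.6, 120 and 113 in BMMs and at 218, 183 and 180 in preOCs. Aldoa was at no more than 521 in BMMs and at 737, 690 and 675 in preOCs. Gapdh is often used as a reference gene for qPCR, and here it stood at 316, 436 and 387 in BMMs and at 688, 616 and 623 in preOCs. Pkm was the most abundant member in both cultures, at 715, 775 and 695 in BMMs and 1240, 918 and 897 in preOCs. Counts per gene cannot separate its 2 splice forms, PKM1 and PKM2.

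The minor isozymes of this stretch were low and less certain. Aldoc, a second aldolase, was at 14, 8 and 7.81 in BMMs and 7.09, 6.3 and 5.92 in preOCs. It fell by 0.63 on the log2 scale (adjusted p = 0.0422), but lost the call under RLE and upper-quartile factors, under library totals (adjusted p = 0.118) and without any single preOC library. Eno2, the neuronal enolase, had 103 to 224 counts in the libraries of this test, and 31 in Bap1LysM BMM 2. It stood at 0.545, 0.487 and 0.528 in BMMs and at 0.875, 0.824 and 0.769 in preOCs, a rise of 0.65 on the log2 scale (adjusted p = 0.0075) that did not pass in the single fit of all 17 libraries. Eno3, the muscle enolase, overlapped between cultures at 2.54 to 4.24 and 4.07 to 5.7 (log2 fold change 0.52, adjusted p = 0.0764), and passed when libraries were blocked by their number (0.54, adjusted p = 0.0261) and with library totals (adjusted p = 0.0284). Aldoa held 98.1 ± 0.69% of aldolase and Eno1 96.7 ± 0.418% of enolase in BMMs (SD, n = 3), and both held over 97% in Bap1flox preOCs.

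Several of these genes have near-identical copies. Only uniquely aligned reads were counted, so reads that match a gene and its copy equally are left out. Of 14 copies and pseudogenes of glycolytic genes listed, 7 were tested, and 5 of them rose in Bap1flox with none falling (median log2 fold change 0.65). Eno1b, for example, rose by 0.92 beside the 0.97 of Eno1. How far reads left out in this way lower the levels of Eno1, Aldoa, Ldha, Pgam1, Pgk1, Gapdh and Tpi1 was not measured.

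At the lactate step Ldha and both carriers rose in the first library set, while Ldhb passed only in some alternatives. Ldha, the subunit that favours lactate, was at 111, 162 and 154 in BMMs and at 351, 305 and 303 in preOCs. It rose by 1.16 on the log2 scale or 2.23-fold (SE 0.16, adjusted p = 0.000576). Ldhb, the subunit that favours pyruvate, was at 5.15, 8.13 and 7.23 in BMMs and 6.66, 12 and 11.4 in preOCs, which overlap (log2 fold change 0.54, SE 0.26, adjusted p = 0.108). Within each numbered pair the preOC was higher, and Ldhb passed when libraries were blocked by their number (0.52, SE 0.105, adjusted p = 0.00832) and with library totals (adjusted p = 0.047). Ldha made up 95.4 ± 0.186% of the pair in BMMs and 96.9 ± 1.07% in preOCs (SD, n = 3). In Bap1flox preOCs 4 to 6 the share was 94.1% to 94.9%, below the 95.2% to 95.5% of BMMs.

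Slc16a1, on chromosome 3 (104638668 to 104658462, plus strand, GRCm38), encodes MCT1, which carries lactate in either direction. It was low in BMMs at 1.21, 1.4 and 1.66 and stood at 8.74, 6.74 and 7.8 in preOCs. This was the strongest rise of the set, 2.43 on the log2 scale or 5.4-fold (SE 0.16, 95% interval 2.13 to 2.74, adjusted p = 2.4e-05). Slc16a3 encodes MCT4, the exporter of glycolytic cells, and was at 9.74, 11 and 11.7 in BMMs and 20.8, 13.6 and 14.9 in preOCs. Its rise was 0.60 on the log2 scale (SE 0.17, adjusted p = 0.0162). MCT4 mRNA remained the more abundant, but the share of Slc16a1 went from 11.6 ± 0.751% to 32.3 ± 2.42% (SD, n = 3), and it was 41.3% to 46.4% in Bap1flox preOCs 4 to 6.

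The route into the mitochondrion rose as well. Pdha1 and Pdhb encode the E1 subunits of pyruvate dehydrogenase and Dlat its E2 core. Pdhb was at 29.6, 29.7 and 29.5 in BMMs and at 72.6, 87.5 and 85.7 in preOCs, a rise of 1.46 on the log2 scale or 2.75-fold (SE 0.08, adjusted p = 1.4e-05). Dlat rose by 1.26 on the log2 scale, from 8.6, 9.18 and 8.33 to 19.4, 22.6 and 20.7 (adjusted p = 2e-05). Pdha1 rose by 0.96, from 15.9, 17.5 and 17 to 28.5, 35.1 and 35 (adjusted p = 0.000153). None of these ranges overlap. The remaining subunit genes, which were not among the members, also rose, Dld by 1.14 and Pdhx by 1.00 on the log2 scale.

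The kinases that switch this complex off were exchanged. Pdk1 stood at 4.02, 3.54 and 3.44 in BMMs and at 10.3, 9.72 and 8.8 in preOCs, and rose by 1.38 on the log2 scale (SE 0.09, adjusted p = 2.6e-05). Pdk3 rose by 0.89, from 4.67, 4.7 and 4.71 to 8.38, 8.43 and 9.4 (SE 0.08, adjusted p = 0.000103). Pdk2 was at 12.6, 10.9 and 12.1 in BMMs and 5.05, 7.51 and 6.87 in preOCs, and fell by 0.89 on the log2 scale (SE 0.15, adjusted p = 0.00164). Pdk2 was the leading kinase of the 3 in BMMs with 58.6 ± 1.55%, while in preOCs Pdk1 with 38.8 ± 4.26% and Pdk3 with 35.2 ± 2.32% were within their spread (SD, n = 3). Pdk2 levels differ between the 2 sets of preOC libraries. In preOCs 4 to 6 it stood at 10.8 to 12.1 scaled RPKM, near the 10.9 to 12.6 of BMMs, while its share of 29.8% to 32.5% stayed below that of BMMs.

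**Figure D3:**
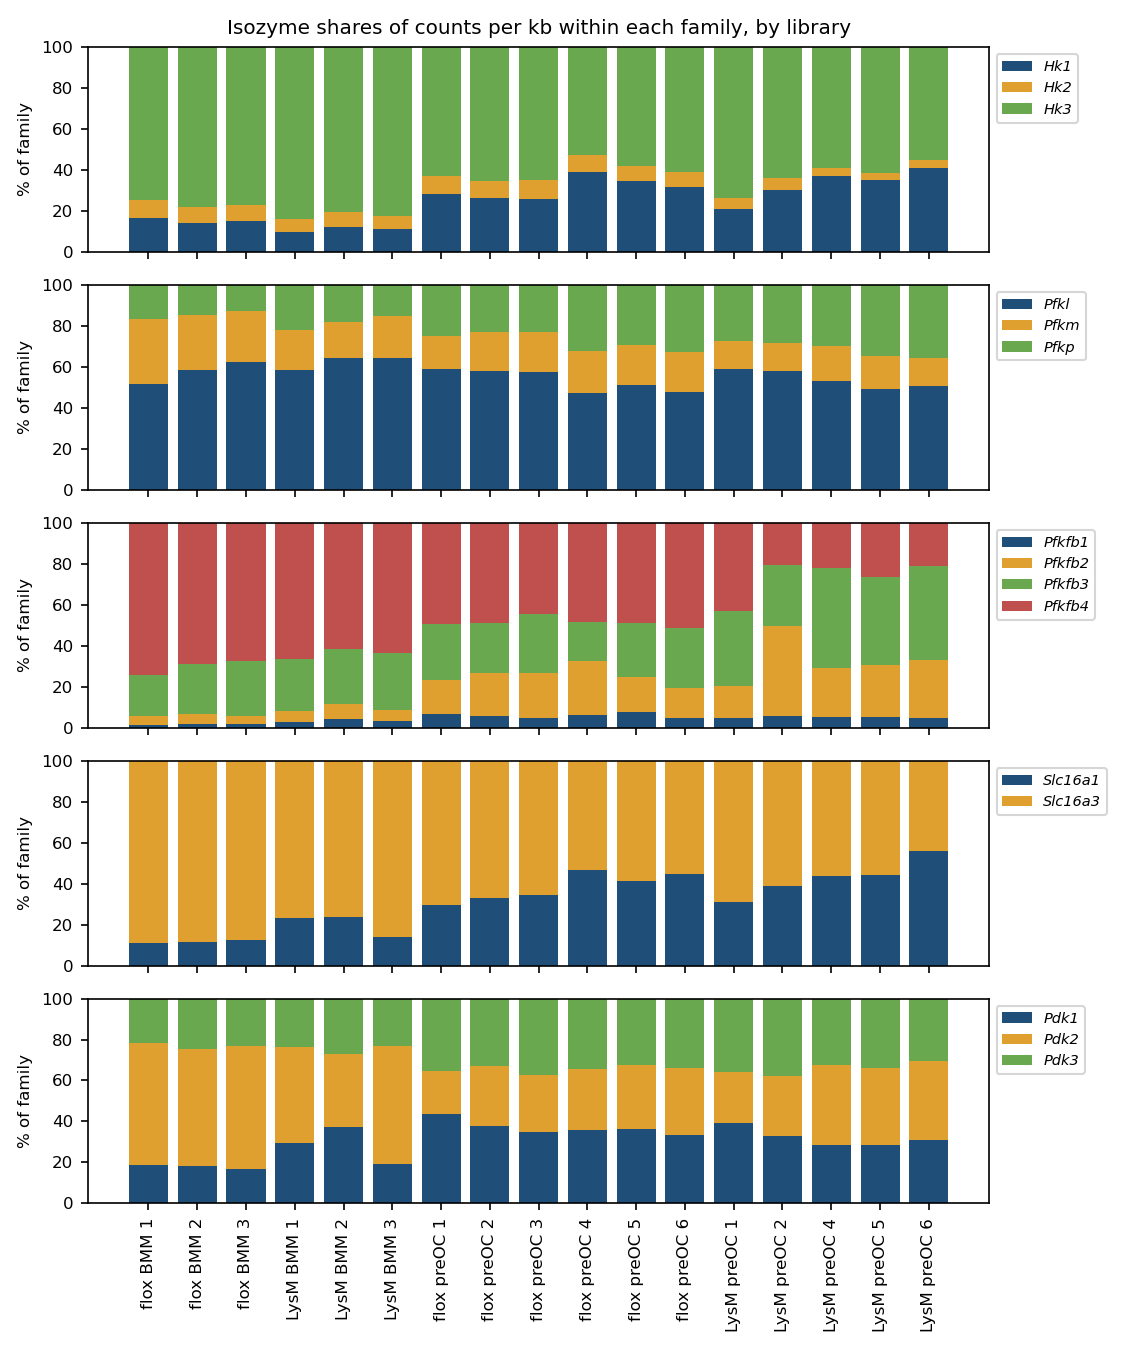
Share of each isozyme within its family, in percent of counts per kb, in each of the 17 libraries. Each bar is a library and sums to 100%. In Bap1flox the shares of Hk1, Pfkp, Pfkfb2, Slc16a1 and Pdk1 are larger in all preOC libraries than in all BMM libraries.

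Over the 9 families, 20 of 25 isozyme shares had ranges that did not overlap between Bap1flox BMMs and preOCs 1 to 3, in a comparison where 71.3% of all genes had levels that did not overlap. Shares within a family sum to 100%, so they are not independent of each other, and no test was made on them. The exceptions were Slc2a1, Slc2a6, Hk2, Pfkl and Pfkfb3. In percentage points, the widest shifts were those of Pdk2 (-32.67), Pfkfb4 (-22.65), Pdk1 (20.72) and Slc16a1 (20.71). The order of abundance at the top did not change, since Pkm, Aldoa, Gapdh and Ldha were the 4 highest members in both cultures, in that order.

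Bap1flox preOCs 4 to 6 have no BMM libraries of the same number among those analysed here and took no part in the RANKL test, so their levels stand beside it with no test. Slc2a1 was at 20.5, 21.8 and 20.6 scaled RPKM in them, above all Bap1flox BMMs, while Slc2a3 was at 0.398, 0.608 and 0.451, lower than in any other group. Hk1 was at 27.7, 27 and 24.4 and Hk3 at 37.7, 45.2 and 47.3, each further from the BMM levels than in preOCs 1 to 3 in 2 or more of the 3 libraries. Pfkl, at 17.1, 19.4 and 16.1, lay at or below the lower end of the BMM range. Pfkm, at 7.56, 7.31 and 6.59, and Pfkp, at 11.7, 11.2 and 11, kept to the levels of preOCs 1 to 3. Pfkfb4 was at 5.31, 5.59 and 6.03 and Pfkfb3 at 2.08, 2.96 and 3.49, again near preOCs 1 to 3. Pfkfb2 was at 2.89, 1.98 and 1.74 and Pfkfb1 at 0.675, 0.854 and 0.553.

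The second set also stood above the first in several mitochondrial genes. Pdhb was at 135, 118 and 105, Pdha1 at 57.2, 48.9 and 43 and Dlat at 28.5, 25.4 and 21.1, and for Pdhb and Pdha1 every value exceeds those of preOCs 1 to 3. Pdk1 was at 14.5, 12.6 and 11.2 and Pdk3 at 14, 11.3 and 11.3, also above preOCs 1 to 3. Ldhb was at 18.5, 17 and 12.5, higher than in any Bap1flox library of the first set. Ldha, at 295, 296 and 230, and Slc16a1, at 8.06, 7.51 and 6.27, stayed above all BMMs. Slc16a3 did not, with 9.33, 10.7 and 7.69 inside or below its BMM range. Aldoc was at 10.7, 11.2 and 10, inside the BMM range as well, and Eno2 at 0.443, 0.291 and 0.636 fell on both sides of it. The directions reported for Slc16a3, Aldoc, Eno2 and Pdk2 were thus not all seen in the second set.

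Hif1a encodes the hypoxia-inducible subunit of HIF-1, a textbook activator of glycolytic genes. Its own mRNA overlapped between cultures, at 15.6, 14.7 and 15.8 in BMMs and 15.3, 13.5 and 13.8 in preOCs (log2 fold change -0.13, 95% interval -0.26 to 0.01, adjusted p = 0.163). Its activity is set largely by protein stability, which mRNA does not show. A list of 25 other HIF partners, regulators and targets outside the members was counted alongside. Of the 23 tested, 16 fell and 3 rose, with a median of -0.57. Ndrg1, a hypoxia-induced stress gene, fell by 1.65, Adm, a secreted peptide, by 1.37, Ddit4, an inhibitor of mTORC1, by 0.93 and Vegfa by 0.63 on the log2 scale, whereas Higd1a, a mitochondrial protein, rose by 0.85. The 3 that rose were Higd1a, Ero1l and Cited2. Thus Ldha, Pgk1, Eno1 and Pdk1, which HIF-1 is known to drive, moved in the other direction from most of the list, and Pfkfb3, Pfkfb4 and Hk2, also known HIF-1 targets, moved with it. What sets these apart was not tested.

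**Figure D4:**
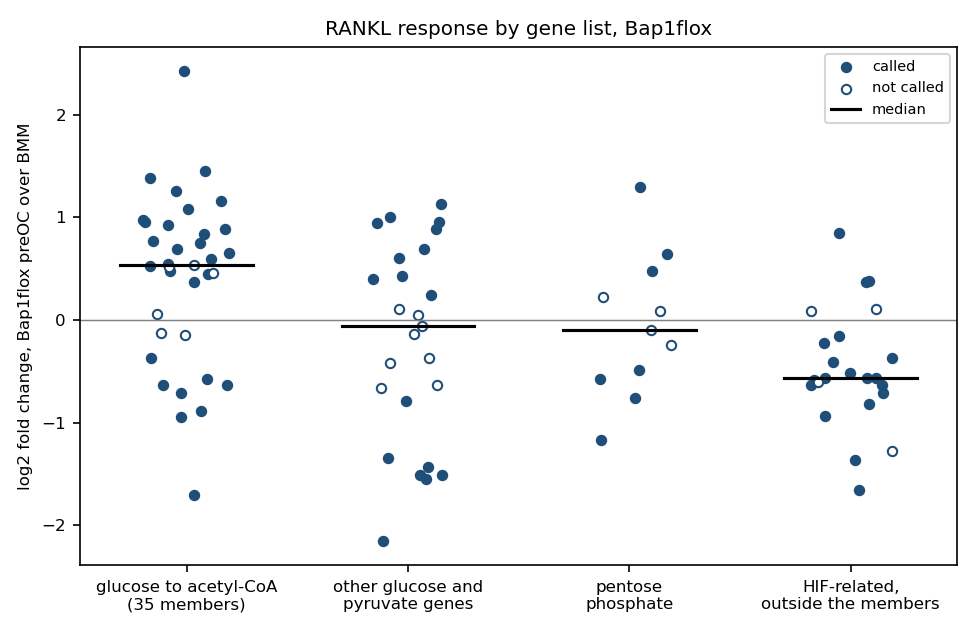
RANKL response in Bap1flox, as log2 fold change of preOCs over BMMs, for the 35 members and 3 lists of other genes. Each point is a gene, filled where it passed the test, and the black line is the median, which is 0.54 for the members and -0.57 for the HIF-related list.

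The promoters of 4 members are shown because they pair genes that rose (Slc16a1, Ldha) with genes that fell (Hk2, Pfkfb4), all known as HIF-1 targets or lactate carriers. They were chosen after their values were seen. Each line gives the 250 bases before a RefSeq start in GRCm38.p6, 5′ to 3′ on the strand of the gene. Capitals mark ACGTG or GCGTG on either strand, the core letters of a hypoxia response element, and CACGTG, the E-box bound by MYC and USF, contains ACGTG. The windows are chr3:104638414-104638663 (plus strand), chr7:46845554-46845803 (plus), chr6:82774455-82774704 (minus) and chr9:108991652-108991901 (plus).
Slc16a1: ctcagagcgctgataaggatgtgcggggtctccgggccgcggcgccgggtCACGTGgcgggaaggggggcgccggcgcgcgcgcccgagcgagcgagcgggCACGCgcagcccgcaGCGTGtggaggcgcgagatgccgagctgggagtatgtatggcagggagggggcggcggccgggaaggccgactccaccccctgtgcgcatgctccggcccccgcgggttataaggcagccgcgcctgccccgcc
Ldha: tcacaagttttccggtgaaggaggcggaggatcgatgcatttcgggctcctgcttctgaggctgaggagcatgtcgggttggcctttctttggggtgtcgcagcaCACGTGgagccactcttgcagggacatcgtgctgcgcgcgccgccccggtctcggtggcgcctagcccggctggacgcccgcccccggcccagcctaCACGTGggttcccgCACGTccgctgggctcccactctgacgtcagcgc
Hk2: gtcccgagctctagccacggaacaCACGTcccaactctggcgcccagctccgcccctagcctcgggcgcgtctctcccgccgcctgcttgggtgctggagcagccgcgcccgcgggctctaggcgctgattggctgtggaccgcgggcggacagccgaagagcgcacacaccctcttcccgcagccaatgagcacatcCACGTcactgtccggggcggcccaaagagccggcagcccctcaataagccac
Pfkfb4: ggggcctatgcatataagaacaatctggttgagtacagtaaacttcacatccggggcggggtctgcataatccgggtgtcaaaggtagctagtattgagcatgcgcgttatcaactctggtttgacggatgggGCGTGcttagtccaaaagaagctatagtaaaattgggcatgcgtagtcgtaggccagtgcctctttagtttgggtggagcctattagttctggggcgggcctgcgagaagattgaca

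The Slc16a1 window holds 4 matches, that of Ldha 5, that of Hk2 2 and that of Pfkfb4 1, where overlapping matches are counted separately. RefSeq windows were found for 34 of the 35 members, with 53 starts. ACGTG or GCGTG was present in 75.5% of the members' windows and in 38.6% of all 32851 promoter windows of the same length. Both cores contain CG, and the median GC content was 60.4% for the members' windows and 52.4% for all windows. The share was 70.6% among windows of members that rose with RANKL and 84.6% among windows of those that fell, and it was 70.4% for the HIF-related list. CACGTG was in 13.2% of the members' windows and 6.02% of all windows. A match is only a run of letters, and binding was not measured.

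Other genes around the pathway were mixed in Bap1flox. Of 39 other glucose and pyruvate genes, 25 were tested, of which 10 rose and 7 fell (median -0.06). Slc2a9, a urate and hexose carrier, fell by 2.16, Pdk4, a kinase of the pyruvate dehydrogenase complex, by 1.55, and Pck2, a mitochondrial enzyme that starts gluconeogenesis, and Pgam2, the muscle form of phosphoglycerate mutase, by 1.51 each on the log2 scale. The mitochondrial pyruvate carrier was divided, with Mpc2 higher by 0.94 and Mpc1 lower (log2 fold change -0.79). Of the 11 pentose phosphate genes 3 rose and 4 fell. G6pdx, the entry enzyme of that pathway, fell by 1.17, and Prps1, which makes phosphoribosyl pyrophosphate, rose by 1.30 on the log2 scale.

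The same response was then measured in Bap1LysM, with 3 BMM and 2 preOC libraries. Here 12 members rose, 3 fell and 20 did not pass, while over all 12998 genes 11.4% rose and 8.2% fell. The median of the members was 0.51, beside 0.01 over all genes. Those that rose were Slc16a1 (log2 fold change 1.69, SE 0.28, adjusted p = 0.018), Pfkfb2 (1.74), Eno3 (1.57), Pdhb (1.45), Dlat (1.39), Pdk3 (0.97), Pdha1 (0.93), Ldha (0.75), Pfkp (0.74), Tpi1 (0.65), Slc16a3 (0.64) and Hk1 (0.61). Those that fell were Slc2a3, Hk3 and Hk2, by 1.00, 0.84 and 0.79 on the log2 scale. With the libraries blocked by number, 10 rose and 4 fell, where 21.2% of all genes passed, with Tpi1, Hk1 and Slc16a3 lost and Eno2 gained as higher and Pfkfb4 as lower. Of the 15 members called without the block, 14 (93.3%) had the same call in Bap1flox, as did 94.9% of the 2550 genes called over the whole table. The other one, Eno3, was also called higher in Bap1flox in 6 alternatives. Bap1LysM preOC 1 stood below preOC 2 in the mitochondrial genes, with Pdhb at 59.4 against 113 and Dlat at 17.6 against 28.1 scaled RPKM. Without both libraries numbered 1, which leaves a single preOC library that is assumed to vary like the BMMs, 13 members rose and 4 fell, beside 32.6% of all genes called in either direction. Pfkfb4 (log2 fold change -2.14, SE 0.26, adjusted p = 0.00101), Ldhb (1.89, SE 0.30, adjusted p = 0.00347) and Eno1 (0.77, SE 0.22, adjusted p = 0.0339) then passed, and Slc16a3 did not (0.39, SE 0.18, adjusted p = 0.132). The number of calls fell to 0 when Bap1LysM BMM 2 or BMM 3 was left out, to 2 without BMM 1 and to 3 without preOC 2. In the same fits the share of all genes called was 0.49%, 1.28%, 8.99% and 4.37%.

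The levels behind these calls separate BMMs from preOCs in most cases. Slc16a1 stood at 1.93, 2.28 and 1.2 scaled RPKM in Bap1LysM BMMs and at 5.52 and 6.08 in preOCs 1 and 2. Ldha was at 149, 191 and 157 in BMMs and at 248 and 307 in preOCs. Both preOCs were above all 3 BMMs for either gene. Hk1 was at 16.2, 18.5 and 15.2 in BMMs and at 22.9 and 27.9 in preOCs, while Hk2 was at 11.1, 10.6 and 8.33 in BMMs and at 6.12 and 5.41 in preOCs. Hk3, the myeloid hexokinase, was at 142, 121 and 112 in BMMs and at 80.5 and 59 in preOCs. The hexokinases thus divided as they did in Bap1flox, without overlap. Pfkp was at 7.25, 6.72 and 5.24 in BMMs and at 10 and 11.3 in preOCs. Pfkfb2 was at 1.19, 1.15 and 1.12 in BMMs and at 2.45 and 5.21 in preOCs, so that the preOC libraries differ more from each other than the BMMs do.

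Several members called in Bap1flox did not pass with all 5 Bap1LysM libraries. Pfkfb4 was at 14.3, 9.64 and 12.4 in BMMs and at 6.69 and 2.45 in preOCs, without overlap (log2 fold change -1.40, SE 0.43, adjusted p = 0.0701, called without the libraries numbered 1 as given above). Pdk1 was at 3.55, 4.71 and 2.69 in BMMs and at 5.61 and 6.37 in preOCs (log2 fold change 0.72, SE 0.24, adjusted p = 0.0875). Eno1 had a log2 fold change of 0.69 (SE 0.23, adjusted p = 0.0845), and its ranges do not overlap either. Pkm was at 986, 1100 and 941 in BMMs and at 1110 and 962 in preOCs, which overlap (log2 fold change 0.04, 95% interval -0.36 to 0.44). Pgk1 and Gapdh overlapped too, with log2 fold changes of 0.30 (SE 0.19) and 0.36 (SE 0.24). Pdk2 was at 5.66, 4.51 and 8.01 in BMMs and at 3.58 and 5.6 in preOCs (log2 fold change -0.40, SE 0.32). Its level in Bap1LysM BMMs was already below that of Bap1flox BMMs.

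The remaining carriers and isozymes in Bap1LysM were as follows. Slc2a1 was at 17.8, 22.9 and 17.9 in BMMs and at 30.4 and 25 in preOCs, without overlap (log2 fold change 0.51, adjusted p = 0.0824). Slc2a3 was at 1.6, 2.23 and 1.5 in BMMs and at 0.991 and 0.787 in preOCs, and Slc2a6 overlapped. Slc16a3 was at 6.32, 7.39 and 7.45 in BMMs and at 12.3 and 9.6 in preOCs. Pfkm was at 6.51, 6.59 and 7.03 in BMMs and at 4.96 and 5.37 in preOCs (log2 fold change -0.37, adjusted p = 0.122), without overlap. Pfkfb3 was at 5.46, 4.23 and 5.31 in BMMs and at 5.62 and 3.47 in preOCs, which overlap. Pdk3 was at 2.89, 3.46 and 3.25 in BMMs and at 5.11 and 7.35 in preOCs. Ldhb was at 4.32, 2.84 and 4.38 in BMMs and at 5.96 and 13.2 in preOCs (log2 fold change 1.32, adjusted p = 0.0605, called without the libraries numbered 1). Eno3 was at 3, 3.65 and 4.04 in BMMs and at 6.96 and 14.1 in preOCs, with preOC 2 well above preOC 1.

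Of the 25 isozyme shares, 16 changed with the same sign in Bap1LysM as in Bap1flox and 9 with the opposite sign. Hk1, Hk3, Pfkm, Pfkp, Pfkfb2, Pfkfb4, Slc16a1, Pdk2 and Pdk3 kept their sign without overlap in either genotype. In Bap1LysM preOCs 4 to 6, which this comparison did not use, all of these but Pdk2 also lay outside the BMM range. The Pdk2 share there was 37.9% to 39.1%, inside the 35.6% to 57.4% of BMMs. Pdk1 kept its sign with ranges that overlap in Bap1LysM (20.72 and 7.51 percentage points). Hk1 went from 11 ± 1.35% (SD, n = 3) to 20.9% and 30.2% in Bap1LysM preOCs 1 and 2, and Pfkfb2 from 6.2 ± 0.969% to 15.9% and 44.2%. Slc16a1 held 20.3 ± 5.58% of the pair in BMMs and 30.9% and 38.8% in preOCs. In percentage points the 9 of opposite sign included Pfkl (0.77 in Bap1flox and -3.74 in Bap1LysM), Eno1 (0.81 and -2.1), Eno3 (-0.71 and 1.97), Ldha (1.48 and -0.9) and Hk2 (0.49 and -0.86). Between cultures the ranges overlap for Pfkl in both genotypes, for Hk2 in Bap1flox and for Ldha in Bap1LysM. The share of Eno3 was 2.29% to 3.18% in BMMs and 3.7% and 5.68% in preOCs.

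A direct test asked whether the RANKL response differed between genotypes. No member passed it, and none of the 13637 genes tested did (0% higher and 0% lower), although 1718 genes, 7 of them members, had an unadjusted p under 0.05. The 7 members were Pfkfb3 (interaction 0.80, SE 0.25), Eno3 (1.03, SE 0.41), Slc16a1 (-0.76, SE 0.33), Pdk1 (-0.68, SE 0.26), Pgk1 (-0.56, SE 0.24), Hk2 (-0.43, SE 0.16) and Pgam1 (-0.35, SE 0.15), with adjusted p from 0.338 to 0.387. The intervals are wide, and for Pfkfb3 the 95% interval ran from 0.31 to 1.29. In a single fit of all 17 libraries with the library set as a term, which adds preOCs 4 to 6, 7 members passed, beside 1440 genes over the whole table (10.4%). These were Eno3 (1.5), Pfkfb3 (1.13) and Aldoc (1.00) in the upward direction and Slc16a1 (-0.85), Hk2 (-0.80), Pgk1 (-0.57) and Pgam1 (-0.55) in the downward direction. DESeq2 called 117 of all genes and no member. Without both Bap1LysM libraries numbered 1 no gene passed in edgeR, and the interaction of Pfkfb3 was 0.48 (SE 0.19, adjusted p = 0.281) and that of Slc16a1 -0.64 (SE 0.42, adjusted p = 0.486).

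Genotypes were next compared in preOCs, with 6 Bap1flox and 5 Bap1LysM libraries, of which numbers 1 to 3 also entered the RANKL comparisons. Of the 35 members, 2 were higher in Bap1LysM and 3 lower, beside 7.12% higher and 8.68% lower among all 12929 genes tested, and the median was -0.04, beside -0.01 over all genes. With library totals in place of TMM factors, 660 genes were higher and 1434 lower in place of 921 and 1122 (699 and 1403 with upper-quartile factors), and 2 members were higher and 4 lower. For 3 members the ranges of the genotypes did not overlap, beside 9.46% of all genes. Most of the abundant chain from Aldoa to Pkm differed by less than the spread between libraries, with log2 fold changes between -0.20 and -0.04 for Aldoa, Tpi1, Gapdh, Pgk1, Pgam1, Eno1 and Pkm. For Pkm the 95% interval was -0.26 to 0.19 and for Gapdh -0.32 to 0.04.

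Eno3 showed the widest genotype difference of the set. It lies on chromosome 11 (70657202 to 70662513, plus strand). Its level in Bap1flox preOCs ran from 4.07 through a median of 5.4 to 6.65 scaled RPKM, and in Bap1LysM preOCs it was 6.96, 14.1, 25.9, 20.8 and 19.4. Every Bap1LysM preOC was above every Bap1flox preOC, by the narrowest margin in number 1, whereas BMMs of both genotypes overlapped at 2.54 to 4.24 and 3 to 4.04. The difference was 1.66 on the log2 scale or 3.15-fold (SE 0.27, adjusted p = 0.00231). Eno3 then made up 9.5% to 11% of enolase in Bap1LysM preOCs 4 to 6, against 2.37% to 2.71% in Bap1flox preOCs 4 to 6.

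Pfkfb3 was also higher, at 5.62, 3.47, 6.86, 5.56 and 5.43 in Bap1LysM and 2.08 to 3.57 in Bap1flox (log2 fold change 0.78, SE 0.17, adjusted p = 0.0107). Only Bap1LysM preOC 2 lay inside the Bap1flox range. The fall of Pfkfb3 with RANKL seen in Bap1flox thus has no called counterpart in Bap1LysM (log2 fold change -0.13, adjusted p = 0.724), but the difference between these responses did not pass (adjusted p = 0.338).

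Slc16a3 and Pfkfb4 had log2 fold changes of -0.79 (SE 0.32, adjusted p = 0.12) and -0.67 (SE 0.24, adjusted p = 0.0805) and did not pass. Slc16a3 ran from 7.69 through a median of 12.2 to 20.8 in Bap1flox preOCs and was at 12.3, 9.6, 6.14, 5.64 and 4.13 in Bap1LysM preOCs. Pfkfb4 ran from 5.31 to 6.21 in Bap1flox and was at 6.69, 2.45, 3.1, 3.48 and 2.52 in Bap1LysM, so that 4 of the 5 Bap1LysM libraries lay below all 6 Bap1flox libraries and number 1 lay above them. Without both libraries numbered 1 the log2 fold change of Pfkfb4 was -1.02 (SE 0.12, adjusted p = 0.000247) and that of Slc16a3 was -1.05 (adjusted p = 0.0327).

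Pfkm, Slc16a1 and Pdk1 were lower. Pfkm ran from 6.59 to 7.99 in Bap1flox and was 4.96, 5.37, 6.09, 4.97 and 4.72 in Bap1LysM, with no overlap (log2 fold change -0.54, SE 0.10, adjusted p = 0.00382). Slc16a1 ran from 6.27 to 8.74 in Bap1flox and was 5.52, 6.08, 4.81, 4.49 and 5.27 in Bap1LysM, again with no overlap (log2 fold change -0.56, SE 0.12, adjusted p = 0.00847). Pdk1 was at 8.8 to 14.5 in Bap1flox and at 5.61, 6.37, 9.26, 8.63 and 9.78 in Bap1LysM (log2 fold change -0.53, SE 0.16, adjusted p = 0.0388). Its ranges overlap over all libraries, but within each library set every Bap1LysM preOC was below every Bap1flox preOC. The call of Pdk1 was lost in 10 alternatives, among them RLE factors (adjusted p = 0.0505), no filter on low counts (adjusted p = 0.0683) and the fits without Bap1flox preOC 1, 4, 5 or 6 or without Bap1LysM preOC 2, 4 or 5 (adjusted p up to 0.099).

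**Figure D5:**
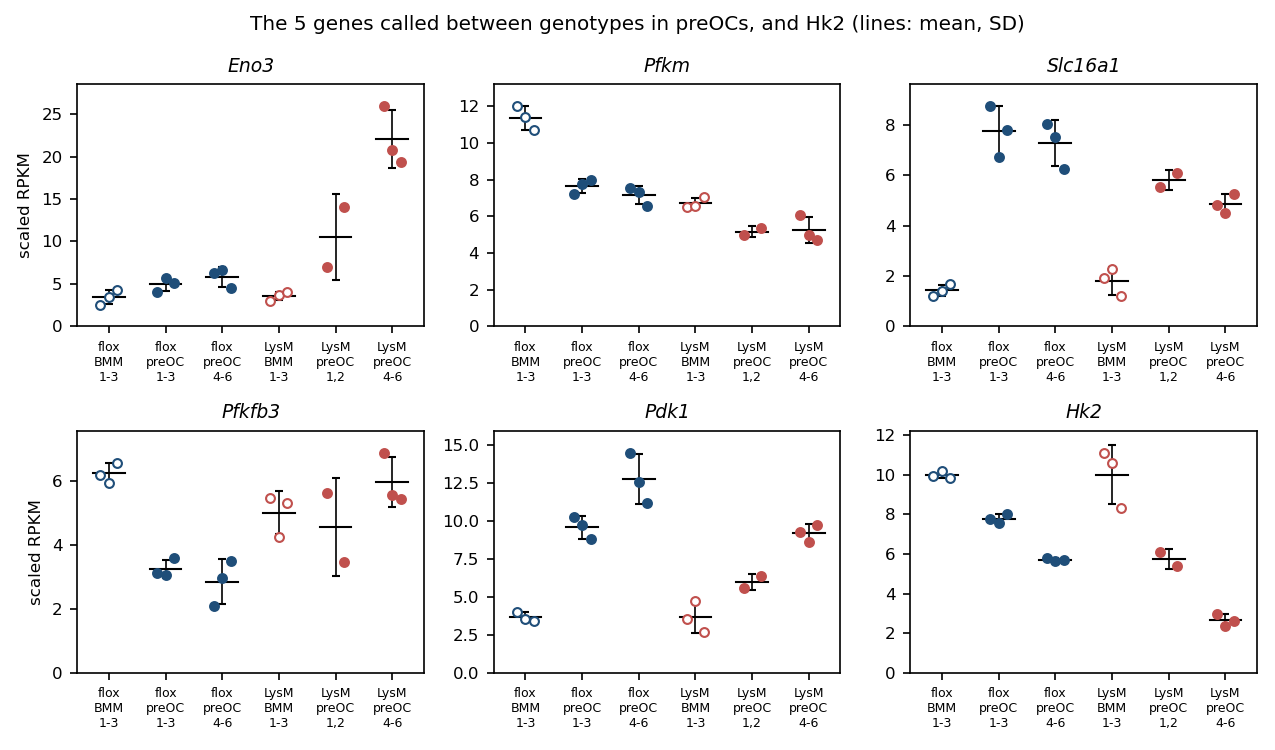
Levels in scaled RPKM of the 5 members that passed the genotype test in preOCs, and of Hk2, in each library, with BMMs as open and preOCs as filled points, Bap1flox in blue and Bap1LysM in red, and black lines for the mean and SD. Eno3 is at 6.96 or above in all 5 Bap1LysM preOCs and at 6.65 or below in all Bap1flox preOCs, and Pfkm and Slc16a1 do not overlap between genotypes in preOCs.

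The 2 library sets differ in level for several members, and the genotype contrast was repeated with that taken into account. With the library set as a term, or with the replicate number as a block, 13 members passed, 5 higher and 8 lower, where 33.6% and 32.8% of all genes passed. Those added in both fits were Pfkfb2 (0.60 with the set as a term), Slc2a6 (0.51) and Hif1a (0.28) on the higher side and Hk2 (-0.83), Slc16a3 (-0.73), Pfkfb4 (-0.67), Pdk3 (-0.39) and Ldha (-0.27) on the lower side. Hk2 shows the pattern most plainly. It stood at 7.76, 7.56 and 8.01 in Bap1flox preOCs 1 to 3 and at 6.12 and 5.41 in Bap1LysM preOCs 1 and 2, then at 5.81, 5.62 and 5.68 in Bap1flox preOCs 4 to 6 and at 2.96, 2.37 and 2.62 in Bap1LysM preOCs 4 to 6. Within each set the genotypes are apart, while over both sets they overlap, and without the set term Hk2 did not pass (log2 fold change -0.82, adjusted p = 0.0581). Within set 4 to 6 alone 14 members passed, beside 33.8% of all genes, and within set 1 to 3 alone, at 3 against 2 libraries, no gene passed in edgeR (2373 at an unadjusted p under 0.05).

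Of the 5 called members, Eno3, Pfkfb3, Pfkm, Slc16a1 and Pdk1 each kept direction in either set. The log2 fold change of Eno3 was 1.06 within set 1 to 3 and 1.89 within set 4 to 6, and that of Slc16a1 was -0.44 and -0.62. Without both Bap1LysM libraries numbered 1, 10 members passed, 3 higher and 7 lower, beside 24% of all genes, and all 5 were among them. Markers of other cells moved with genotype as well. Neutrophil markers summed to 450 to 617 CPM in Bap1LysM preOCs 4 to 6, against 111 to 181 in Bap1flox preOCs 4 to 6 and 170 to 175 in Bap1LysM preOCs 1 and 2, and 6 of the 8 tested were called higher in Bap1LysM (median log2 fold change 1.53). Of the 8 macrophage markers 2 were higher, Mertk by 1.26 and Csf1r by 0.41 on the log2 scale, and of the 11 osteoclast markers Dcstamp alone was lower (-0.69). All 6 stromal markers tested had negative log2 fold changes (median -0.94, range -1.45 to -0.16), and none was called. Their part in these results was not tested.

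In BMMs, before RANKL, 4 members differed by genotype and all were lower in Bap1LysM, where 1.31% of 13028 genes were higher and 4.01% lower. Pfkm was at 12, 11.4 and 10.7 in Bap1flox and at 6.51, 6.59 and 7.03 in Bap1LysM (log2 fold change -0.77, SE 0.09, adjusted p = 0.0121). Pdk2 was at 12.6, 10.9 and 12.1 against 5.66, 4.51 and 8.01 (log2 fold change -0.98, SE 0.21, adjusted p = 0.0457). Slc16a3 was at 9.74, 11 and 11.7 against 6.32, 7.39 and 7.45 (log2 fold change -0.63, SE 0.11, adjusted p = 0.0316). Pdk3 was at 4.67, 4.7 and 4.71 against 2.89, 3.46 and 3.25 (log2 fold change -0.57, SE 0.12, adjusted p = 0.0457). None of these ranges overlap. Pfkm was lower in Bap1LysM in both genotype comparisons, and with the replicate number as a block Slc16a3, Pdk3 and Pfkfb4 were called lower in both as well. The share of Pfkm within PFK in BMMs was 19.3 ± 1.45% in Bap1LysM and 28 ± 3.49% in Bap1flox (SD, n = 3).

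Calls in BMMs were fragile at 3 against 3 libraries. None of the 4 passed when Bap1flox BMM 2, Bap1flox BMM 3 or Bap1LysM BMM 2 was left out, and 2 members passed without Bap1LysM BMM 1, namely Pfkm and Eno2. In the same fits the share of all genes called was 0.0545%, 0.0311%, 0.649% and 2.84%. With the replicate number as a block 8 passed, where calls over all genes went from 693 to 2107 (16.2%), adding Pfkfb4 as lower and Pkm, Pgk1 and Pgam1 as higher. Pkm stood at 715, 775 and 695 in Bap1flox BMMs and at 986, 1100 and 941 in Bap1LysM BMMs (log2 fold change 0.46, SE 0.11, adjusted p = 0.0568 without the block). Markers of other cells differed in these BMMs too. The 5 stromal markers tested all had negative log2 fold changes (median -1.15), with sums of 515 to 2800 CPM in Bap1flox and 378 to 1310 in Bap1LysM, and the 8 neutrophil markers all had positive ones (median 0.62), with sums of 76.4 to 242 and 216 to 311 CPM. None of these was called, while Mrc1, a macrophage marker (-0.56), and Cd79b, a B cell marker (-1.05), were called lower. Their part in the BMM results was not tested.

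Around the pathway, 1 other glucose gene was higher in Bap1LysM preOCs (Ldhd, a D-lactate dehydrogenase, 0.76) and 2 were lower on the log2 scale (Bpgm, which makes 2,3-bisphosphoglycerate, -1.32, and Pcx, pyruvate carboxylase, -1.16). In the pentose phosphate list G6pdx (0.60) and Prps2 (1.16) were higher and Prps1 (-0.90) lower. Among HIF-related genes Adm was higher (2.71) and Ndrg1 lower (-0.88), with a list median of -0.08 that is close to that of all genes.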

How the data were processed

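RNA was sequenced from BMM and preOC cultures, and the authors aligned reads with STAR (2.5.1a) to Ensembl release 76 (GRCm38) and counted uniquely aligned reads per gene with featureCounts (1.4.6-p5). The deposited counts were used for all tests. The deposited CPM are those counts scaled to the library total, and the deposited RPKM are that CPM per kb of gene length; both were recomputed and checked, and levels here use the counts with TMM factors over all 17 libraries. Strand use in counting is not given in the sources used here.

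Symbols were matched through GENCODE M21 for 97.5% of 41388 gene IDs, and 355 rRNA genes were left out. Tests were edgeR (4.0.16, R 4.3.3) quasi-likelihood fits with TMM factors and genes above 1 CPM in at least 2 libraries (4 for preOCs), Benjamini-Hochberg adjusted over all genes tested at 0.05, and adjusted p in the text are from edgeR unless another tool is named. The standard error is the absolute log2 fold change over the square root of F, and intervals are 1.96 SE. Isozyme shares are counts per kb within a family. Alternatives used DESeq2 (1.42.0) and limma (3.58.1). The testing code was checked on simulated data. Changes of 1 on the log2 scale were called in 73.5% of cases for the RANKL response of Bap1flox and 16.3% for that of Bap1LysM. The share was 15.2% for the interaction, 63.3% for genotype in preOCs and 42.9% in BMMs. Changes of 0.58 were called in 27.7%, 0%, 0%, 24% and 6.12%, in the same order. A member that was not called may thus still differ. Figures used matplotlib.

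By the rule for named genes every member was described, with full values due to isozyme families, to members called in Bap1flox at 0.58 or more on the log2 scale and to the 5 members of largest difference between genotypes in preOCs; some are given as ranges for length. The members and the gene lists were chosen with earlier results of these data known. The study calls the preOC libraries biologically independent; nothing used here says so of the BMMs, and p-values may then measure only technical spread. Eno2 had 31 counts in its lowest library, the fewest of any member in any library. Libraries of a group differed by more than counting noise.

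The main tests did not pair libraries by number, and the replicate block was run as an alternative. Deviations from group means of same-numbered BMM and preOC Bap1flox libraries correlated at 0.36, 0.22 and 0.3 over 13810 genes, same-numbered BMMs of both genotypes at 0.49, 0.3 and 0.34, and same-numbered preOCs at 0.34 to 0.69, the last including the difference between library sets. For Bap1LysM only 2 pairs exist (0.48 and 0.34). Differently numbered libraries correlated at -0.37 to 0.21 between Bap1flox BMMs and preOCs, and at -0.4 to 0.22 between BMMs of both genotypes. Between genotypes in preOCs 1 to 3 they correlated at 0.22 to 0.64, beside 0.57 and 0.69 for the same numbers. In preOCs 4 to 6 they correlated at 0.26 to 0.65, beside 0.34, 0.6 and 0.43. Matching by number thus did not stand out in preOCs 4 to 6.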

Additional observations from a re-analysis of the deposited data

Results flagged for a closer look

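In groups of 5 or 6 libraries, 6 of 70 sets of values had a library that stood apart from the others of its group by Dixon's criterion at 95%, which chance gives in about 1 of 20 sets. In Bap1flox preOC 1, Slc2a1 was at 29.3 scaled RPKM while the other 5 libraries lay between 20.5 and 21.8. Slc2a6 in the same library was at 18 against 10.5 to 12.2, and Pkm was at 1240 against 897 to 973. In Bap1LysM preOC 1, Pfkfb4 was at 6.69 against 2.45 to 3.48, Eno2 at 0.971 against 0.205 to 0.423, and Dlat at 17.6 against 26.6 to 28.1. The latter library is also the preOC in which Lyz2 was near the Bap1flox level. Summed osteoclast markers were at 6850 CPM in Bap1flox preOC 1, against 10600 to 14400 in the other 5, and at 6310 in Bap1LysM preOC 1, against 13900 to 16900 in the other 4, and their part in these values was not tested. No member passed the test of a difference in RANKL response between genotypes in the fit of library set 1 to 3, while 7 did in the single fit of all 17 libraries, where 10.4% of all genes passed, and 1, Pfkfb3, without Bap1LysM preOC 2, where 0.878% did.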

How the results depend on the processing

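No called direction of a member was reversed under any alternative run. In the RANKL response of Bap1flox 29 members passed. The number stayed between 26 and 34 under every alternative, with 32 under the replicate block. Each library left out in turn gave 26 to 31. Over all genes 64.6% passed in the main fit and 57% to 68.7% with a library left out. The share was 75.8% under voomWithQualityWeights, where 34 members passed, and 34.2% with no filter on low counts, where 30 did. The 20 isozyme shares without overlap were 21 with raw counts in place of counts per kb. With a library left out the number was 20 to 21. It cannot fall in those settings, because leaving out a library only narrows a range. In the RANKL response of Bap1LysM 15 passed, with 7 under voomWithQualityWeights, 23 in the single fit of all 17 libraries, 14 under the replicate block and 0 to 15 when each library was left out. The interaction had 0 members, 7 in the single fit and 0 to 1 with a library left out; leaving out Bap1LysM preOC 2 gave the 1. For genotype in preOCs 5 passed, and 9 under DESeq2, 21 under voomWithQualityWeights, 12 in the single fit, 13 under the replicate block, 13 with the library set as a term, 10 without both Bap1LysM libraries numbered 1, 0 in set 1 to 3 alone, 14 in set 4 to 6 alone and 4 to 10 with a library left out. For genotype in BMMs 4 passed, and 9 under DESeq2, 10 under voomWithQualityWeights, 2 under filterByExpr, 9 in the single fit, 8 under the replicate block, 2 without both Bap1LysM libraries numbered 1 and 0 to 3 with a library left out. The cause of these differences was not tested. Fewer libraries enter the fits on a single set or with a library left out. For genotype in preOCs 15.8% of all genes passed in the main fit, 22.5% under DESeq2 and 8.32% to 24% with a library left out. In BMMs 5.32% passed in the main fit, 3.73% under filterByExpr and 0.0311% to 5.83% with a library left out. Counts over all genes moved too: in preOCs 2043 became 7099 under voomWithQualityWeights, 4527 in the single fit, 4236 under the block, 4349 with the set as a term, 3085 without libraries 1, 4304 in set 4 to 6 and 0 in set 1 to 3; in BMMs 693 became 2065 under DESeq2, 1772 under voomWithQualityWeights, 1991 in the single fit and 2107 under the block; in the Bap1LysM response 2550 became 3996, 1667 and 6813 under DESeq2, voomWithQualityWeights and the single fit, and 4112 without libraries 1; the interaction had 0, 117 under DESeq2 and 1440 in the single fit. Library totals without TMM factors, chosen after seeing the data, moved the median of members in Bap1flox from 0.54 to 0.74 (log2). Other medians ranged from 0.332 to 0.603 for the RANKL response of Bap1LysM, from -0.113 to 0.007 for genotype in preOCs and from 0.004 to 0.116 in BMMs.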
